A study of Mus musculus with 24 samples.

Results

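Tsc22d3, the gene for the glucocorticoid-induced leucine zipper protein GILZ, was followed with 6 other genes known to respond to glucocorticoids (Fkbp5, Per1, Klf9, Ddit4, Sgk1 and Zfp36l2) and with Nr3c1, the glucocorticoid receptor gene. These 8 genes were taken by symbol from the 55487 gene identifiers counted in each library. Tsc22d3 was chosen by its rise in the libraries labelled Pus10-KO, so its values in that comparison are a description, and no test is given there for any of the 8 genes. The data were 24 Smart-seq2 RNA-seq libraries of sorted mouse hematopoietic stem cells (HSCs), in 3 experiments that each had its own control. PUS10-OE (n = 3), which by its label overexpresses the pseudouridine synthase PUS10, was set against Vector (n = 3). The miR139-KD group (n = 6), a knockdown of the microRNA miR-139, was set against NTC, a non-target control (n = 6). Pus10-KO (n = 3), by its label a knockout of Pus10, was set against Pus10-WT (n = 3). The labels name a genotype for each group but give no strain, age, vector, guide or deleted part, and do not say whether libraries came from separate mice, so p-values measure the spread between libraries, which may be technical.

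Glucocorticoids enter the cell and bind the receptor encoded by Nr3c1, which is held in the cytoplasm by HSP90 and its co-chaperones. The bound receptor moves to the nucleus and binds glucocorticoid response elements, inverted repeats of a short half-site, near genes such as Tsc22d3, Fkbp5 and Per1. In blood cells the hormone is known for restraining inflammatory genes and for its effects on lymphocyte survival, and FKBP5 feeds back on the receptor by lowering its affinity for the hormone.

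The start sites of these genes are shown as a description of their sequence. Tsc22d3, Fkbp5, Per1 and Zfp36l2, 4 of the 8 genes, stood higher in every library labelled Pus10-KO than in any Pus10-WT library. Of all 14657 genes tested there, 13.7% had groups that did not overlap, and that comparison chose Tsc22d3. No window was at hand for Zfp36l2. The receptor gene Nr3c1 was not part of the search. RefSeq promoters (GRCm38.p6) of 6 of the 8 genes gave 14 windows of 250 bases upstream of a start site. Each was searched on both strands for the full glucocorticoid response element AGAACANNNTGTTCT, its half-site TGTTCT, the E-box CACGTG bound by clock factors, the cAMP response element TGACGTCA and the FOXO motif TGTTTAC. The full element was found in 3 of 32851 mouse windows (0.00913%), and 1 of the 3 belonged to Sgk1. The half-site was found in 16.1% of windows, the E-box in 6.02%, the FOXO motif in 3.17% and the cAMP element in 1.55%. The stretches below, written 5′ to 3′ on the gene's strand with motif matches in capitals, are the parts of 4 windows that lie in no annotated exon.
Tsc22d3, chrX:140600660-140600772, minus strand: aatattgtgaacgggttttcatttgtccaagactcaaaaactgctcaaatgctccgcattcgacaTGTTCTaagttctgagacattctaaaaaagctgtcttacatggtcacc
Sgk1, chr10:21993640-21993889, plus strand: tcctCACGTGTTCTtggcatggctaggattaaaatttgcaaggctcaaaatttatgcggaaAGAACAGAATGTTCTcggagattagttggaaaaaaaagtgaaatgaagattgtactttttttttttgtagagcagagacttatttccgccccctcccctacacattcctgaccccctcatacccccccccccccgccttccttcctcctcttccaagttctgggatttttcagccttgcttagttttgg
Fkbp5, chr17:28486150-28486399, minus strand: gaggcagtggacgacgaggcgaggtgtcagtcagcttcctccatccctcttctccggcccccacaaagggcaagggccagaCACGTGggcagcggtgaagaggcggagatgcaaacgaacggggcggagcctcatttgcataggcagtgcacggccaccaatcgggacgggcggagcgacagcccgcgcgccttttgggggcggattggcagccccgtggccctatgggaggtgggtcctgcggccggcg
Per1, chr11:69098699-69098947, plus strand: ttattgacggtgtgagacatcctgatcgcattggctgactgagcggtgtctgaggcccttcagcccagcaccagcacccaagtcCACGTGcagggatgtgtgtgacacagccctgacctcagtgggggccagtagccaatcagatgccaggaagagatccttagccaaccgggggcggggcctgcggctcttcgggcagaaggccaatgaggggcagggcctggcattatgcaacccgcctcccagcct
The Tsc22d3 stretch holds a half-site whose first base lies 185 bases upstream of the start site, and neither of the other Tsc22d3 windows held any of the motifs. The Sgk1 stretch holds the full element at 189 bases upstream, and near its 5′ end a half-site that overlaps an E-box. The 2 other Sgk1 windows with a match held a half-site, at 195 and at 13 bases upstream. The capitals in Fkbp5 and Per1 are an E-box at 169 and 166 bases upstream. The Klf9 window held a FOXO motif at 100 bases upstream, the Ddit4 window held none of the motifs, and no window held the cAMP element. A match describes the letters of this window and is not a measured binding site.

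Each library had 9873587 to 47278996 counts on genes and 15575 to 17879 genes detected, with the PUS10-OE and Vector libraries the deepest. Levels are CPM, or counts scaled to a common library total with trimmed-mean factors over all 24 libraries. As a check of the labels, Pus10 measured 283 ± 28.9 CPM (SD, n = 3) in PUS10-OE and 83.5 ± 22.7 in Vector. It was not lower in the libraries labelled Pus10-KO (32.0 ± 1.11 CPM, n = 3) than in Pus10-WT (25.9 ± 6.91, n = 3). The labels do not give the deleted part, so every direction drawn from these libraries rests on the label alone, and Pus10-KO stands below for the libraries labelled so. All 8 HSC markers looked up (Procr, Slamf1, Mecom, Fgd5, Ctnnal1, Kit, Ly6a and Hlf) had a mean of at least 1 CPM in each of the 6 groups, with summed levels from 373 to 1657 CPM. Markers of other blood cells were present too. In NTC the 9 neutrophil markers summed to 1472 to 19073 CPM and the 7 erythroid markers to 670 to 10511 CPM. In miR139-KD they summed to 1349 to 17937 and 1031 to 8000 CPM. In Vector and PUS10-OE neither sum passed 99.2 CPM. HSC markers summed to 373 to 604 CPM in NTC and 516 to 681 CPM in miR139-KD. Erythroid markers summed to 252 to 1598 CPM in Pus10-WT and 427 to 4539 CPM in Pus10-KO. Mast cell and basophil markers reached 1930 CPM in miR139-KD replicate 6. The part of these cells was not tested. Other marker sums stand further below.

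Tsc22d3 lies on chromosome X (GRCm38, GENCODE M21, X:140539528-140600659, minus strand, 4341 exonic bases) and encodes a leucine zipper protein that binds NF-κB and AP-1. It measured 438, 491 and 389 CPM in the 3 Pus10-WT libraries and 968, 1111 and 909 CPM in the 3 libraries labelled Pus10-KO. The lowest Pus10-KO library was above the highest Pus10-WT library by a wide margin. The means were 439 ± 50.6 and 996 ± 104 CPM, a log2 fold change of 1.18 (SE 0.121), or 2.27-fold. Over 15 other ways of fitting the counts the log2 fold change was between 1.10 and 1.27. Whether more of the cells carried Tsc22d3 RNA or each cell carried more cannot be told apart in bulk libraries.

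In the other experiments Tsc22d3 was far lower in every library. It measured 77.9, 83.2 and 103 CPM in Vector and 57.8, 50.5 and 63.5 CPM in PUS10-OE. Every PUS10-OE library was below every Vector library. The log2 fold change was -0.62 (SE 0.154), which missed the threshold over all genes (adjusted p = 0.364 by edgeR's quasi-likelihood test). DESeq2 called the same difference (adjusted p = 0.0247), and over 15 alternatives the adjusted p ran from 0.0247 to 1 and the log2 fold change from -0.73 to -0.49. In NTC, Tsc22d3 had its lowest value at 74.2, its median at 84.7 and its highest at 127 CPM, and in miR139-KD 62.9, 80.0 and 97.8 CPM. These ranges overlapped, with a log2 fold change of -0.17 (SE 0.159, adjusted p = 0.688 by edgeR).

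Per kilobase of exon, which allows genes to be compared, Tsc22d3 stood at 13.2 CPM per kb in PUS10-OE, 18.3 in miR139-KD, 20.2 in Vector and 20.7 in NTC. Neighbours in this order overlapped. It then stood at 101 CPM per kb in Pus10-WT and 229 in Pus10-KO, and neither range overlapped the group below it. The order across experiments also follows depth, experiment and cell preparation, from which it cannot be told apart. Of its relatives, Tsc22d1 was at 71.4 CPM per kb in Pus10-WT and 91.4 in Pus10-KO, and at 31.8 to 44.5 in the other 4 groups. Tsc22d3 was the more abundant of the pair per length only in the Pus10 experiment, judged by group means.

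**Figure D1:**
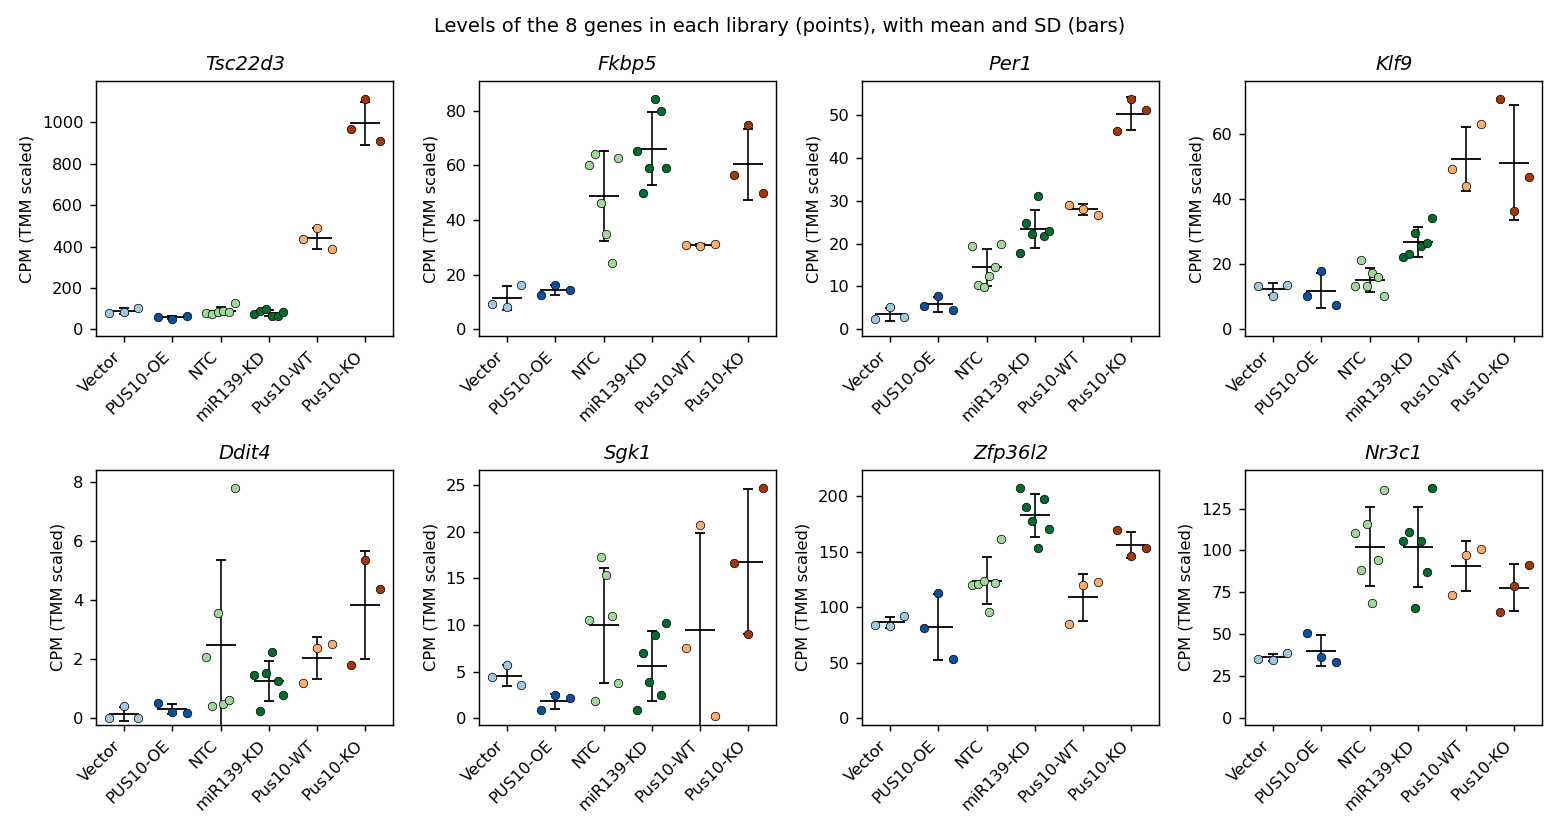
Level of each of the 8 genes in CPM (linear axis, 1 point per library) in the 6 groups, with a horizontal bar at the mean and an error bar of 1 SD (cropped at the axis where it passes below 0). Tsc22d3 sits at 389 to 491 CPM in Pus10-WT and at 909 to 1111 CPM in Pus10-KO, and at or below 127 CPM in the other 18 libraries.

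Nr3c1, the receptor, showed group ranges that overlapped in each of the 3 comparisons. It measured 73.6, 97.3 and 101 CPM in Pus10-WT and 63.0, 79.0 and 91.6 CPM in Pus10-KO, a log2 fold change of -0.22 (SE 0.204). It measured 35.2, 34.7 and 38.7 CPM in Vector and 50.7, 36.6 and 33.6 CPM in PUS10-OE, with a log2 fold change of 0.15 (SE 0.183, adjusted p = 0.932 by edgeR). In NTC its lowest, median and highest values were 68.7, 102 and 136 CPM, and in miR139-KD 65.8, 105 and 137 CPM. The last 2 ranges were nearly the same, and the log2 fold change was 0.00 (SE 0.187, adjusted p = 0.997 by edgeR), with a sign that turned under other scalings. The receptor was lowest in Vector and PUS10-OE, whose libraries all lay below the lowest library of any other group. The related mineralocorticoid receptor gene Nr3c2, which also binds these hormones, averaged at most 0.591 CPM per kb in any group, against 4.71 to 13.3 for Nr3c1.

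Fkbp5 (17:28399094-28517527, minus strand), the receptor co-chaperone that limits hormone binding, measured 30.9, 30.6 and 31.2 CPM in Pus10-WT and 56.3, 74.7 and 49.97 CPM in Pus10-KO. The groups did not overlap, and the Pus10-WT libraries were within 1 CPM of each other. The log2 fold change was 0.97 (SE 0.217). Fkbp5 measured 9.19, 8.35 and 16.4 CPM in Vector and 12.7, 16.1 and 14.4 CPM in PUS10-OE, overlapping ranges with a log2 fold change of 0.35 (SE 0.305, adjusted p = 0.880 by edgeR). In NTC it ran from 24.4 over a median of 53.2 to 64.3 CPM, and in miR139-KD from 49.7 over 62.1 to 84.1 CPM. These ranges overlapped too (log2 fold change 0.44, SE 0.234, adjusted p = 0.381 by edgeR).

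Per1 (11:69095217-69109960, plus strand), a repressor in the circadian clock, measured 29.1, 28.1 and 26.7 CPM in Pus10-WT and 46.2, 53.6 and 51.1 CPM in Pus10-KO. The groups were apart, with a log2 fold change of 0.85 (SE 0.197). Per1 was scarce in the overexpression experiment, with Vector libraries at 2.46, 5.29 and 2.79 CPM and PUS10-OE libraries at 5.42, 7.75 and 4.42 CPM. Those ranges overlapped (log2 fold change 0.73, SE 0.422, adjusted p = 0.747 by edgeR). In NTC it ran from 9.90 over a median of 13.4 to 19.96 CPM, and in miR139-KD from 17.7 over 22.6 to 31.2 CPM. The log2 fold change of 0.70 (SE 0.258) did not pass the threshold, with an edgeR adjusted p of 0.181.

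Klf9 (19:23141226-23168134, plus strand), a Krüppel-like repressor, did not follow Tsc22d3 in the Pus10 experiment. It measured 49.3, 44.1 and 63.2 CPM in Pus10-WT and 70.6, 36.2 and 46.7 CPM in Pus10-KO, and the ranges overlapped (log2 fold change -0.03, SE 0.286). In NTC its lowest, median and highest values were 10.4, 14.7 and 21.2 CPM, and in miR139-KD they were 22.1, 25.9 and 34.3 CPM. Every miR139-KD library was above every NTC library. The log2 fold change was 0.82 (SE 0.231), short of the threshold by edgeR (adjusted p = 0.0770) and past it by DESeq2 (adjusted p = 0.0344), within a range of 0.0344 to 0.265 over 22 alternatives. In Vector it measured 13.4, 10.2 and 13.7 CPM and in PUS10-OE 10.3, 17.8 and 7.34 CPM, overlapping ranges with a log2 fold change of -0.08 (SE 0.344, adjusted p = 0.991 by edgeR).

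Zfp36l2 (17:84183931-84187947, minus strand), an RNA-binding protein that speeds the decay of AU-rich messages, was called by edgeR in miR139-KD. Of the 8 genes it was the only one that edgeR called in PUS10-OE or miR139-KD, each fitted with its own control. Calls of the 8 genes in Pus10-KO are not given. A single edgeR fit over all 6 groups also called Klf9 in miR139-KD. In NTC the lowest, median and highest values of Zfp36l2 were 95.9, 121 and 162 CPM, and in miR139-KD they were 154, 184 and 207 CPM. The ranges overlapped through NTC replicate 6 and miR139-KD replicate 4. The means were 124 ± 21.2 and 183 ± 19.4 CPM (SD, n = 6 each), and the fitted difference was 0.57 on the log2 scale (SE 0.123; adjusted p = 0.0264 by edgeR). The log2 fold change stayed between 0.50 and 0.66 over 22 alternatives, and the adjusted p between 0.00282 and 0.123. The call was lost without NTC replicate 2 (adjusted p = 0.0577), NTC replicate 3 (0.0547), miR139-KD replicate 1 (0.0558) or miR139-KD replicate 2 (0.0509). An antisense gene shares 105 exonic bases with Zfp36l2 and had at most 13 counts in any library.

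In the Pus10 experiment Zfp36l2 measured 84.4, 120 and 123 CPM in Pus10-WT and 169, 146 and 153 CPM in Pus10-KO, without overlap (log2 fold change 0.52, SE 0.175). In Vector it measured 83.5, 83.1 and 92.2 CPM and in PUS10-OE 81.4, 112 and 52.9 CPM. The PUS10-OE libraries lay on both sides of Vector (log2 fold change -0.08, SE 0.237, adjusted p = 0.985 by edgeR).

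Sgk1 (10:21882184-21999903, plus strand), a kinase that acts on ion channels and FOXO factors, varied widely between libraries of 1 group. It measured 7.54, 20.7 and 0.259 CPM in Pus10-WT and 16.7, 9.06 and 24.7 CPM in Pus10-KO. The ranges overlapped, with the lowest library in Pus10-WT and the highest in Pus10-KO (log2 fold change 0.82, SE 1.10). In Vector it measured 4.38, 5.75 and 3.51 CPM and in PUS10-OE 0.863, 2.45 and 2.104 CPM. All PUS10-OE libraries were lower, with a log2 fold change of -1.33 (SE 0.509), which missed the threshold (edgeR adjusted p = 0.551). In NTC it ran from 1.81 over a median of 10.8 to 17.3 CPM, and in miR139-KD from 0.880 over 5.46 to 10.3 CPM, overlapping ranges with a log2 fold change of -0.83 (SE 0.644, adjusted p = 0.595 by edgeR).

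Ddit4 (10:59949669-59951834, minus strand), an inhibitor of mTORC1 signalling, had the fewest counts of the 8 genes, from 0 to 106 per library and 3 or fewer in 3 of the 24 libraries. It measured 0, 0.414 and 0 CPM in Vector and 0.512, 0.220 and 0.184 CPM in PUS10-OE, where it was too low to be tested. It measured 1.20, 2.39 and 2.52 CPM in Pus10-WT and 1.80, 5.36 and 4.38 CPM in Pus10-KO (log2 fold change 0.91, SE 0.905). Those ranges overlapped. In NTC the lowest, median and highest values were 0.418, 1.34 and 7.81 CPM, and in miR139-KD 0.240, 1.36 and 2.23 CPM (log2 fold change -0.98, SE 0.876, adjusted p = 0.663 by edgeR). The highest value was NTC replicate 6, and without that library the log2 fold change was -0.18. Over 21 alternatives it ran from -1.22 to -0.11.

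Because 1 experiment lowered miR-139, the 3′ untranslated regions of the 8 genes were searched for matches to its seed. The RefSeq mature sequences (chr7:101475382-101475403 and chr7:101475418-101475439, plus strand) are shown with bases 2 to 8, the seed, in capitals, followed by the only match, a 7-base site in Ddit4 in capitals.
mmu-miR-139-5p: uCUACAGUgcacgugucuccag
mmu-miR-139-3p: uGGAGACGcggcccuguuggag
Ddit4, 5p match at base 232 of 867 of the untranslated region: acgcccctcagtACTGTAGcatgaaacaaa
The other 7 genes, Zfp36l2 and Klf9 included, held no match to either arm in their longest annotated 3′ untranslated region. Of 11005 tested genes with such a region, 13.2% held the 5p match and 4.01% the 3p match. The Ddit4 medians were close in NTC and miR139-KD, as given above.

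**Figure D2:**
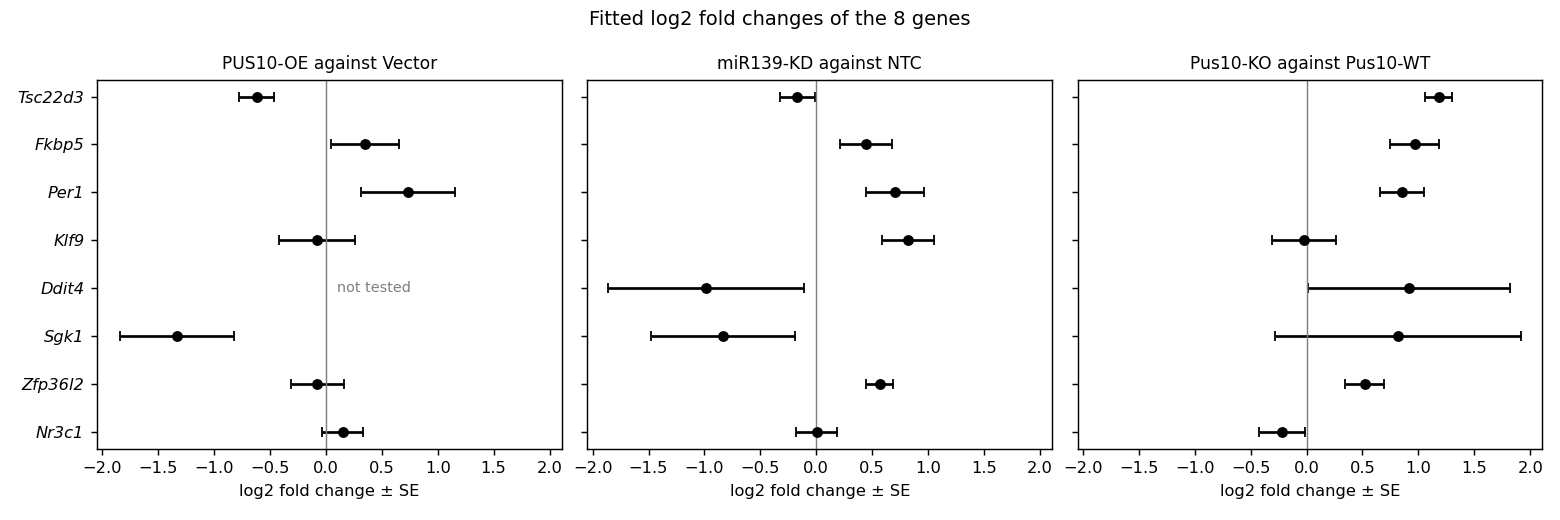
Fitted log2 fold change of each of the 8 genes (points) with its SE (bars) in the 3 comparisons; Ddit4 was too low to be tested in PUS10-OE against Vector. Tsc22d3 lies at -0.62 in PUS10-OE, -0.17 in miR139-KD and 1.18 in Pus10-KO, while Nr3c1 lies within 0.22 of 0 in each.

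Counted together, 6 of the 8 genes had a positive log2 fold change in Pus10-KO, with a median of 0.83 beside -0.00 for all genes tested, and 4 stood higher without overlap. Those counts describe the comparison that chose Tsc22d3, and nothing is read from them. Over all 14657 genes tested there, 13.7% had groups that did not overlap, and edgeR called 0.0614%. In PUS10-OE, 7 of the 8 passed the filter on low counts, 3 with a positive and 4 with a negative log2 fold change (median -0.08, all genes 0.01). Tsc22d3 and Sgk1 were the 2 with groups that did not overlap, against 15.0% of all genes tested. edgeR called 0% of the 14834 genes there and none of the 7, while 1215 genes had an unadjusted p under 0.05, Tsc22d3 and Sgk1 among them. Pus10 itself, at 83.5 CPM in Vector and 283 CPM in PUS10-OE, was thus not called either. A missed threshold there does not show that a gene was unchanged. limma-voom also called 0 genes, and DESeq2 called 177 (1.20%), with Tsc22d3 the only one of the 7.

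In miR139-KD all 8 genes passed the filter, 5 with a positive and 3 with a negative log2 fold change (median 0.22, all genes 0.02). The call of Zfp36l2, 1 of 8, stands beside 1.41% of all genes called higher and 1.31% called lower. Klf9 was the 1 gene of 8 with groups that did not overlap, against 3.40% of all genes. DESeq2 called Zfp36l2 and Klf9, and 6.11% of all genes.

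The libraries also differed in markers of other blood cells. In the Pus10 experiment the 4 plasma cell markers (Jchain, Igkc, Ighm and Mzb1) summed to between 17869 and 25277 CPM in Pus10-WT and between 34.9 and 43.1 CPM in Pus10-KO, where Mzb1 was at 0 in every library. Igkc, the immunoglobulin light chain, measured 10966 ± 1666 CPM against 5.14 ± 7.10 (SD, n = 3 each). The 8 B cell markers summed to 114 to 143 CPM in Pus10-WT and 58.9 to 70.5 in Pus10-KO, where Cd79a, Ms4a1, Ebf1, Pax5 and Igll1 were at 0. The difference in these markers separates the groups in full, so the higher Tsc22d3, Fkbp5, Per1 and Zfp36l2 and the lower plasma cell signal cannot be told apart by this design. The 9 neutrophil markers ran from 493 to 735 CPM in Pus10-WT and from 553 to 3530 in Pus10-KO, and the 8 HSC markers from 1448 to 1657 and from 1394 to 1565 CPM.

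**Figure D3:**
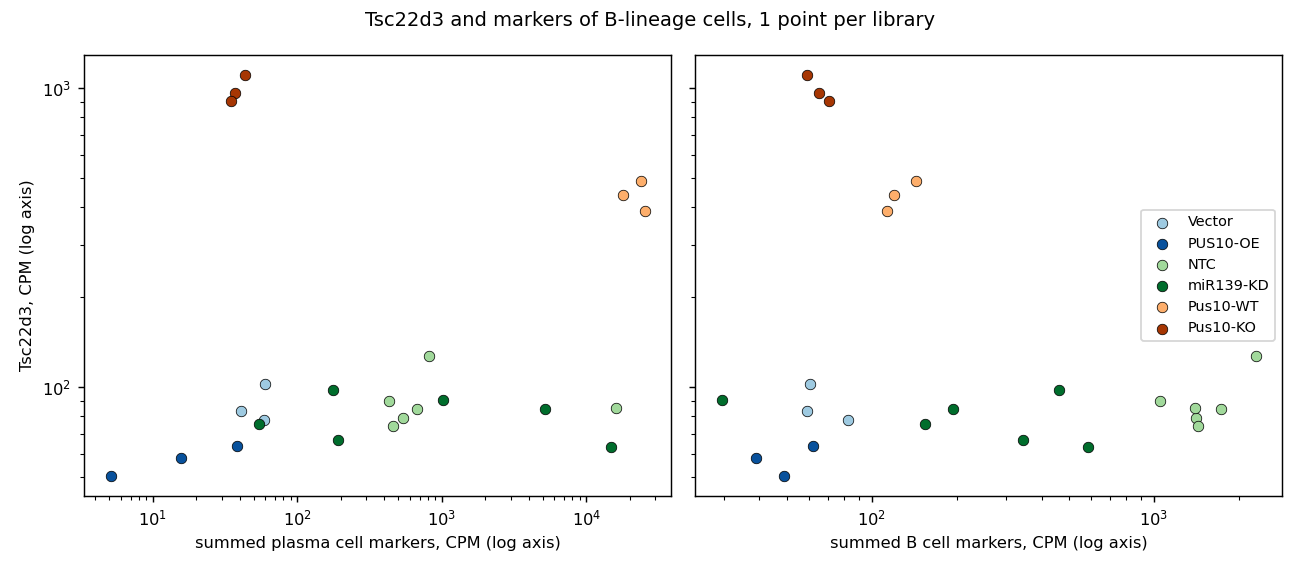
Tsc22d3 in CPM against the summed CPM of 4 plasma cell markers (left) and 8 B cell markers (right), 1 point per library, all axes logarithmic. Pus10-WT lies at 17869 CPM of plasma cell markers and above and Pus10-KO at 43.1 CPM and below, while NTC and miR139-KD libraries from 54.1 to 16074 CPM of plasma cell markers all have Tsc22d3 at or below 127 CPM.

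Plasma cell markers were also high in NTC replicate 5 (16074 CPM) and in miR139-KD replicates 5 (14826 CPM) and 6 (5133 CPM), and lay between 54.1 and 1025 CPM in the other 9 libraries of that experiment. Tsc22d3 measured 85.1 CPM in NTC replicate 5 and 62.9 and 84.5 CPM in those miR139-KD replicates, inside the range of the other libraries for 2 of the 3. Without these 3 libraries, a choice made after seeing the data, the log2 fold change of Zfp36l2 was 0.56 with an edgeR adjusted p of 0.123, and no member was called. B cell markers summed to 1050 to 2298 CPM in NTC and 29.5 to 584 CPM in miR139-KD, megakaryocyte markers to 91.0 to 348 and 1176 to 2832, and multipotent progenitor markers to 562 to 1016 and 211 to 288. The part of these cells in the Zfp36l2 and Klf9 differences was not tested. In the overexpression experiment the plasma cell markers summed to 40.5 to 59.3 CPM in Vector and 5.11 to 38.2 in PUS10-OE, megakaryocyte markers to 309 to 355 and 448 to 660, and multipotent progenitor markers to 1021 to 1037 and 724 to 750. Those 3 marker sums separated the groups in full. The plasma cell sum there was nearly all Ighm, with means of 52.7 CPM in Vector and 19.6 CPM in PUS10-OE. Igkc was at 0, and Jchain and Mzb1 averaged at most 0.0351 CPM in either group. The part of these marker sums in the lower Tsc22d3 was not tested.

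Other genes of the pathway were taken from 7 lists. None of the lists held a gene that edgeR called in PUS10-OE with the usual filter on low counts. Among 25 other glucocorticoid-induced genes, 21 were tested in PUS10-OE, 8 had a positive log2 fold change, the median was -0.35 (all genes 0.01), and 5 had an unadjusted p under 0.05. The share of all genes with such a p was 8.19% in PUS10-OE and 16.0% in miR139-KD, and the counts of unadjusted p given below stand beside these shares. The 2 with the lowest p were Zfp36, the paralog of Zfp36l2 that acts on inflammatory messages, with 74.0 ± 4.62 CPM (Vector) and 41.7 ± 2.29 CPM (PUS10-OE) (log2 fold change -0.83, SE 0.124, adjusted p = 0.278 by edgeR), and Txnip, a thioredoxin inhibitor, at 200 ± 12.1 and 123 ± 14.0 CPM (log2 fold change -0.70, edgeR adjusted p = 0.298). DESeq2 called 4 of this list, Dusp1, Rgs2, Txnip and Zfp36, all lower. In 5 of the 21 genes all PUS10-OE libraries were below all Vector libraries, and in none were they above, where 15.0% of all genes did not overlap.

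In miR139-KD the same list had 23 genes tested, 15 with a positive log2 fold change, a median of 0.08 (all genes 0.02), 3 with an unadjusted p under 0.05 and none called by limma-voom or by edgeR with the usual filter and all 12 libraries fitted alone. Rgs2, a regulator of G protein signalling, measured 49.5 ± 8.22 CPM in NTC and 29.6 ± 6.91 in miR139-KD (log2 fold change -0.73, edgeR adjusted p = 0.0577). Cdkn1a, the cell cycle inhibitor p21, measured 54.6 ± 27.4 and 21.1 ± 12.6 CPM (log2 fold change -1.36, edgeR adjusted p = 0.103). DESeq2 called both lower. By edgeR, Rgs2 was called in the fit over all 6 groups, and Cdkn1a with a filter of 10 CPM and without miR139-KD replicate 3. In Pus10-KO, 23 genes were tested, 12 with a positive log2 fold change and a median of 0.01 (all genes -0.00). Groups did not overlap in 4 that were higher and 3 that were lower, against 13.7% of all genes. Those named here were picked after their values were seen. Rhob, a small GTPase, stood at 5.10 ± 1.61 and 21.4 ± 4.65 CPM (log2 fold change 2.07), and Cdkn1c, the cell cycle inhibitor p57, at 4.93 ± 2.52 and 17.3 ± 1.86 CPM (1.82). On the other side, Dusp1, a MAP kinase phosphatase, stood at 72.6 ± 11.0 and 44.6 ± 7.09 CPM (-0.70), and Anxa1 at 207 ± 53.8 and 106 ± 33.8 CPM (-0.96). The induced genes of this wider list lay on both sides of 0.

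Receptor chaperones and the paralogs of the 8 genes were the 2 lists with calls by edgeR in miR139-KD. All 11 chaperones were tested, none had a positive log2 fold change (51.4% of all genes did), and the median was -0.31 (all genes 0.02). The 2 that edgeR called lower stand beside 1.31% of all genes. Fkbp4, the co-chaperone paralog of Fkbp5 that favours hormone binding, fell from 621 ± 99.6 CPM in NTC to 426 ± 53.0 in miR139-KD (-0.54 on the log2 scale, SE 0.111, adjusted p = 0.0200 by edgeR). Hspa8, the constitutive heat shock protein HSC70, fell from 2928 ± 554 to 1990 ± 245 CPM (-0.55 on the log2 scale, SE 0.117, adjusted p = 0.0225 by edgeR). DESeq2 and limma-voom called both, and also Cdc37, a co-chaperone of HSP90 that measured 453 ± 52.3 and 337 ± 60.8 CPM (log2 fold change -0.42, SE 0.119, adjusted p = 0.0777 by edgeR). By edgeR, neither Fkbp4 nor Hspa8 was called without NTC replicate 3, without miR139-KD replicate 2 or without the 3 libraries high in plasma cell markers. Only 1 of the pair was called without NTC replicates 2 or 4 or miR139-KD replicates 1 or 6, or with the replicate number as a block. Among the edgeR alternatives, Cdc37 was called lower with a filter of 10 CPM and in the fit over all 6 groups. It was also called without NTC replicate 6 or miR139-KD replicate 3. The fit over all 6 groups called Dnajb1 lower too. In PUS10-OE the chaperones had a median of 0.06 and none with an unadjusted p under 0.05, with Bag1 at 0.36 (edgeR adjusted p = 0.714) and Fkbp4 at -0.22 (0.800). In Pus10-KO 1 of 11 had a positive log2 fold change, and the median was -0.11. Groups did not overlap in 1 that was higher and 4 that were lower, against 13.7% of all genes.

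Of the paralogs of the 8 genes, 10 of 13 were tested in miR139-KD and edgeR called 2 lower, beside 1.31% of all genes. They were Fkbp4, as given above, and Klf13, a relative of Klf9. Klf13 fell from 263 ± 37.2 to 176 ± 34.3 CPM (-0.57 on the log2 scale, SE 0.134, adjusted p = 0.0346 by edgeR). Klf13 had the lower mean in miR139-KD where Klf9 had the higher one, and it kept its call without the 3 libraries high in plasma cell markers. It lost the call without any 1 of NTC replicates 1, 2, 4 or 6 or miR139-KD replicates 1, 2, 4 or 6. With the replicate number as a block, no paralog was called. In PUS10-OE 11 paralogs were tested with a median of -0.19 and 1 unadjusted p under 0.05. Zfp36, given above, and Sgk3 (log2 fold change -0.28, edgeR adjusted p = 0.714) were the 2 with the lowest p, and DESeq2 called Zfp36. In Pus10-KO 4 of the 11 paralogs tested had a positive log2 fold change, and the median was -0.09. Groups did not overlap in 3 that were higher and 1 that was lower, against 13.7% of all genes. The lower one was Fkbp4, at 142 to 170 CPM per kb in Pus10-WT and 120 to 129 in Pus10-KO. Tsc22d1 (642 ± 86.3 and 822 ± 65.4 CPM), Tsc22d4 (71.1 ± 12.3 and 106 ± 15.8) and Klf13 (336 ± 13.4 and 460 ± 31.3) were the 3 that stood higher without overlap, picked after their values were seen.

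No gene of the remaining lists was called in PUS10-OE or miR139-KD by limma-voom. The same held for edgeR with the usual filter on low counts and each group fitted against its own control. Among the edgeR alternatives, Egr1 was called lower in PUS10-OE with a filter of 10 CPM, and Ccl3 and Arntl were called lower in miR139-KD in the fit over all 6 groups. Of 10 inflammatory genes that glucocorticoids repress, 9 were tested in PUS10-OE (median -0.13, 3 with an unadjusted p under 0.05). The chemokine Ccl3 measured 20.2 ± 9.56 CPM in Vector and 2.56 ± 2.13 in PUS10-OE (log2 fold change -2.97, edgeR adjusted p = 0.337), and Ccl4 19.5 ± 20.7 and 4.07 ± 0.286 CPM (-2.27, edgeR adjusted p = 0.452). DESeq2 called both. In miR139-KD 4 were tested (median -0.64, 1 with an unadjusted p under 0.05), with Ccl3 at -2.85 (edgeR adjusted p = 0.169) and the adhesion gene Icam1 at -1.24 (0.330), and DESeq2 called Ccl3. In Pus10-KO 2 of 4 had a positive log2 fold change (median 0.36).

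Receptor cofactors and genes of ligand access had medians of 0.02, 0.15 and 0.11 in PUS10-OE, miR139-KD and Pus10-KO, and DESeq2 called none in either tested comparison. In PUS10-OE none of 13 had an unadjusted p under 0.05, with Ncoa3 at 0.31 (edgeR adjusted p = 0.731) and Carm1 at -0.41 (0.848) lowest in p. In miR139-KD 5 of 14 did, with the arginine methyltransferase Carm1 at -1.34 and the remodeller Smarca4 at -0.31 lowest in p (edgeR adjusted p = 0.173 for each). Clock genes, the partners of Per1, had medians of -0.24, 0.07 and -0.08. In PUS10-OE 3 of 14 had an unadjusted p under 0.05, with Ciart at 12.7 ± 3.35 and 6.36 ± 1.27 CPM (edgeR adjusted p = 0.448) and Bhlhe40 at 51.4 ± 3.92 and 35.0 ± 7.43 CPM (0.499), and DESeq2 called none. In miR139-KD 2 of 13 did, with Arntl, the gene for BMAL1, at -1.55 (edgeR adjusted p = 0.130) and Hlf at 0.45 (0.174), and DESeq2 called Arntl.

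Immediate early genes, which answer to cell handling as well as to hormones, had medians of -0.17, -0.21 and -0.18. In PUS10-OE 1 of 8 had an unadjusted p under 0.05, with Egr1 at 188 ± 22.2 and 96.7 ± 23.4 CPM (log2 fold change -0.96, edgeR adjusted p = 0.337) and Ier3 at -0.39 (0.714), and DESeq2 called Egr1. In miR139-KD 1 of 7 did, with Jund at 0.66 (edgeR adjusted p = 0.206) and Ier2 at -0.38 (0.320), and DESeq2 called none. The lower Tsc22d3 in PUS10-OE stood beside lower means of Egr1, Zfp36, Dusp1 and Txnip, whose part in it was not tested. These genes were picked after their values were seen. In the lists they came from, 4 of 8 immediate early genes and 8 of 21 other induced genes had a positive log2 fold change.

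**Figure D4:**
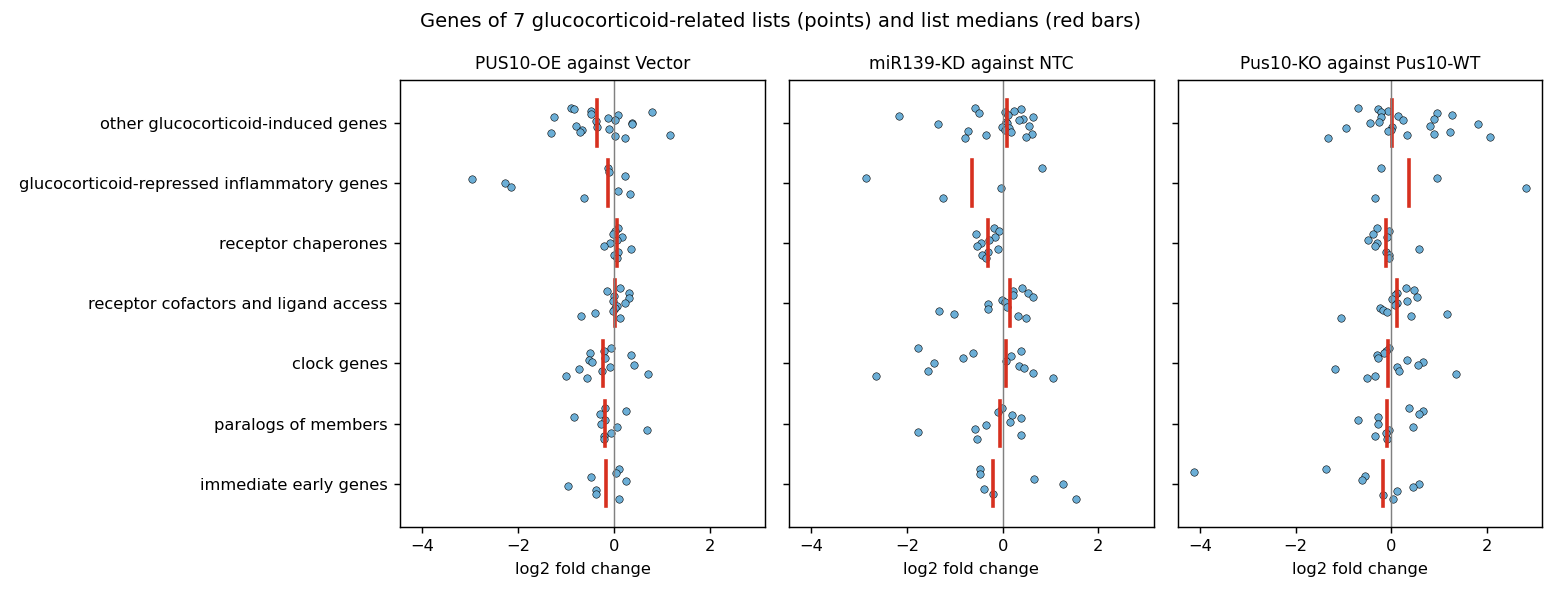
Log2 fold change of each tested gene (points) in the 7 lists, with the list median (red bar), in the 3 comparisons; vertical spread within a list has no meaning. In miR139-KD all 11 receptor chaperones lie below 0, and in Pus10-KO the 23 other glucocorticoid-induced genes lie on both sides of 0 with a median of 0.01.

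To see which genes moved most like Tsc22d3, log2 CPM was centred on each experiment's mean and correlated over the 24 libraries, among 9189 other genes with a mean log2 CPM of at least 3. Values share libraries, depth and the Pus10-KO difference that chose Tsc22d3, and are given as a description. The 5 highest were Rab24 (r = 0.71), Rabep1 (0.71), Tprgl (0.69), Ercc6l2 (0.68) and Appbp2 (0.68). Without the Pus10 experiment, over 18 libraries, Rabep1 stood at 0.72 and Rab24 at 0.05. Among the other 7 glucocorticoid genes, none of those that were ranked was near the top. Zfp36l2 had r = 0.27 and rank 1004, Fkbp5 0.25 and rank 1143, and Per1 0.12 and rank 2642. Nr3c1 (-0.14) and Klf9 (-0.25) were negative, and Sgk1 (0.45) and Ddit4 (0.14) were too low to be ranked. Without the Pus10 experiment Fkbp5 stood at -0.30 and Per1 at -0.37, so their positive values over 24 libraries came with the Pus10 experiment.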

How the data were processed

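The submitters' processing notes list HISAT2 2.1.0, HTSeq 0.11.2, DESeq2 and the build mm10 for the 24 Smart-seq2 libraries; the annotation release and strand setting are not given in the sources used here. The deposited values are raw counts per gene, 1 file per library, and 5 summary rows per file were left out of all totals (no feature, 3.70 to 12.0% of reads; ambiguous, 6.53 to 20.1%). Symbols were matched by gene identifier without version, for 55394 of 55487 identifiers. Positions and lengths came from GENCODE M21.

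Each treated group was tested against its own control with edgeR 4.0.16 (R 4.3.3): filterByExpr, trimmed-mean (TMM) factors, robust quasi-likelihood F test, Benjamini-Hochberg over all genes tested, threshold 0.05. Its SE is the log2 fold change over the root of F. Alternatives were DESeq2 1.42.0, limma-voom (limma 3.58.1), other scalings and filters, a replicate block, 1 fit over 6 groups and leaving out each library; DESeq2 calls among the genes reported are given beside those of edgeR. The edgeR fit was tested on simulated data. Replicates were compared in 42 pairs, each further apart than counting noise (chi-square per degree of freedom at least 31.9), and none was merged.

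The 8 genes and the 7 lists were chosen with earlier results of these data known. From each list the text names the genes called in PUS10-OE or miR139-KD, or else the 2 with the lowest p; others are marked as picked after their values were seen.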

Additional observations from a re-analysis of the deposited data

Results flagged for a closer look

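Of 16 sets of 6 libraries (8 genes in NTC and in miR139-KD), 1 held a library that stood apart by Dixon's test, near the 1 in 20 that chance gives. Tsc22d3 measured 127 CPM in NTC replicate 6 and at most 89.7 CPM in the other NTC libraries, a gap of 0.707 of the whole range (critical value 0.625). Without that library the log2 fold change of Tsc22d3 in miR139-KD was -0.04 in place of -0.17. NTC replicate 6 also differed in cell markers. It had the highest neutrophil (19073 CPM), B cell (2298 CPM) and multipotent progenitor (1016 CPM) sums of the NTC libraries, and the lowest erythroid sum (670 CPM). Their part in its Tsc22d3 value was not tested.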

How the results depend on the processing

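Tsc22d3 kept its direction under every alternative run in all 3 comparisons. The genes called in PUS10-OE, 0 by edgeR, numbered 177 by DESeq2, 9 with a filter of 10 CPM and 5 in 1 fit over all 6 groups, and DESeq2 called 1 of the 8 genes (Tsc22d3). In miR139-KD edgeR called 361 genes, DESeq2 795 and the fit over 6 groups 792. Leaving out 1 library gave 196 to 340, and leaving out the 3 libraries high in plasma cell markers 201. Of the 8 genes, 1 was called there by edgeR, 2 by DESeq2 and in the fit over 6 groups (Zfp36l2 and Klf9), 0 without the plasma-high libraries, and 0 to 1 with 1 library left out. In Pus10-KO edgeR called 9 genes, DESeq2 152, limma-voom 3 and the fit over 6 groups 15, with 0 to 10 when 1 library was left out.

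Nr3c1 in miR139-KD turned from 0.00 to -0.000396 (DESeq2), -0.000394 (RLE factors), -0.00103 (upper quartile factors), -0.00159 (no filter), -0.00745 (fit over 6 groups) and -0.0937 (plasma-high libraries left out), and ran from -0.0983 to 0.106 with 1 library left out. In PUS10-OE, leaving out 1 library moved Klf9 between -0.50 and 0.15, Nr3c1 between -0.0409 and 0.238, and Zfp36l2 between -0.37 and 0.14. The cause of these changes was not tested. Counts were fewest for Ddit4, with 3 or fewer in 3 of 24 libraries.

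With the replicate number as a replicate block, miR139-KD had 188 genes called and 0 of the 8 genes, with Zfp36l2 at an adjusted p of 0.0576. Pus10-KO had 2 genes called, and PUS10-OE 0. Over the genes tested, same-numbered libraries did not deviate together (correlations from -0.0241 to 0.0222), and no library correlated best with its own number. The labels give no pairing beyond the number. Whether same-numbered libraries shared a preparation was not tested and cannot be told from these correlations.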
